A study of Mus musculus with 6 samples.

Results

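A set of 9 genes that move iron into, within and out of cells was examined in cultured CD31-positive cells from mouse liver. They are Tfrc, Steap3 and Slc11a2 (uptake), Fth1 and Ftl1 (storage), Slc40a1 (export), Ireb2 and Aco1 (iron sensing) and Fech (haem synthesis). They were chosen by symbol, all 9 were among the 13595 genes of the deposited table, and all 9 passed the filter on low values. The libraries labelled female held 7.40 times as much Tfrc RNA and 6.68 times as much Slc40a1 RNA as those labelled male, so the transcripts of the main iron importer and of the iron exporter were both higher there. Steap3 and Fth1 were lower, at 40.3% and 67.9% of the male level.

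The cells came from 4-week-old C57BL6/J mice and were enriched for CD31, a surface protein of endothelial cells, before culture. Both groups, 3 libraries labelled male and 3 labelled female (replicates 4, 5 and 6 of each), were exposed to indoxyl sulfate at 100 µM, a tryptophan metabolite that activates the aryl hydrocarbon receptor, together with 6 hours of low oxygen and nutrient withdrawal. Cells without that exposure were not analysed here, so the only contrast is between the labelled sexes of exposed cells. The labels do not say whether the replicates are separate mice or separate wells, and the p-values measure only the spread between these libraries, which may be technical.

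Iron bound to transferrin enters cells through the transferrin receptor encoded by Tfrc, is reduced in the endosome by a STEAP reductase and leaves the endosome through the transporter encoded by Slc11a2 (DMT1). In the cytosol it is used, stored inside the ferritin shell built from the Fth1 and Ftl1 chains, or exported by ferroportin, the product of Slc40a1. The iron regulatory proteins, encoded by Aco1 and Ireb2, bind a short RNA hairpin called the iron-responsive element when iron is low. Bound in front of the coding sequence, as in the ferritin and ferroportin messages, they block translation, and bound behind it, as in the Tfrc message, they protect the message from decay.

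The elements are shown because they mark which of these messages the regulatory proteins can bind. The reference transcript with the longest coding sequence of each gene (GENCODE M21, GRCm38) was searched on its sense strand for a C, 5 bases, CAGTGN and 5 bases pairing with the first 5 (G:T pairs allowed). Capitals mark the unpaired C and the 6-base loop, and each line runs 5′ to 3′.
Fth1, 5′ UTR: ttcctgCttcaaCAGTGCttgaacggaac
Ftl1, 5′ UTR: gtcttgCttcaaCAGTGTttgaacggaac
Slc40a1, 5′ UTR: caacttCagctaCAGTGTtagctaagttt
Tfrc, 3′ UTR, element 1: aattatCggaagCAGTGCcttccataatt
Tfrc, 3′ UTR, element 2: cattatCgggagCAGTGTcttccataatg
Tfrc, 3′ UTR, element 3: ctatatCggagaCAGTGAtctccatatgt
Tfrc, 3′ UTR, element 4: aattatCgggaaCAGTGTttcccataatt
Slc11a2, 3′ UTR, 1 unpaired base in the second arm: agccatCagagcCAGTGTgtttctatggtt

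The fully paired element stood in the 5′ UTR of 13 of 12248 genes (0.106%) and in the 3′ UTR of 81 of 12379 genes (0.654%) of the table. Fth1, Ftl1 and Slc40a1 each held 1 in the 5′ UTR and Tfrc held 4 in the 3′ UTR. The Slc11a2 element appeared only after 1 unpaired base was allowed in the second arm, a search over all coding transcripts added after the strict one, and it lies in 1 of the 7 coding transcripts of that gene. Over 1 reference transcript per gene, a narrower search than that for Slc11a2, the looser form stood in the 3′ UTR of 1.12% of genes. The strict elements lie in 1 of 3 coding transcripts of Tfrc, 1 of 4 of Slc40a1, 2 of 3 of Ftl1 and 4 of 5 of Fth1. The deposited values are per gene, so forms with and without an element were not told apart. No match in Ireb2, Aco1, Fech or Steap3 says only that these letters are not in those transcripts.

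**Figure D1:**
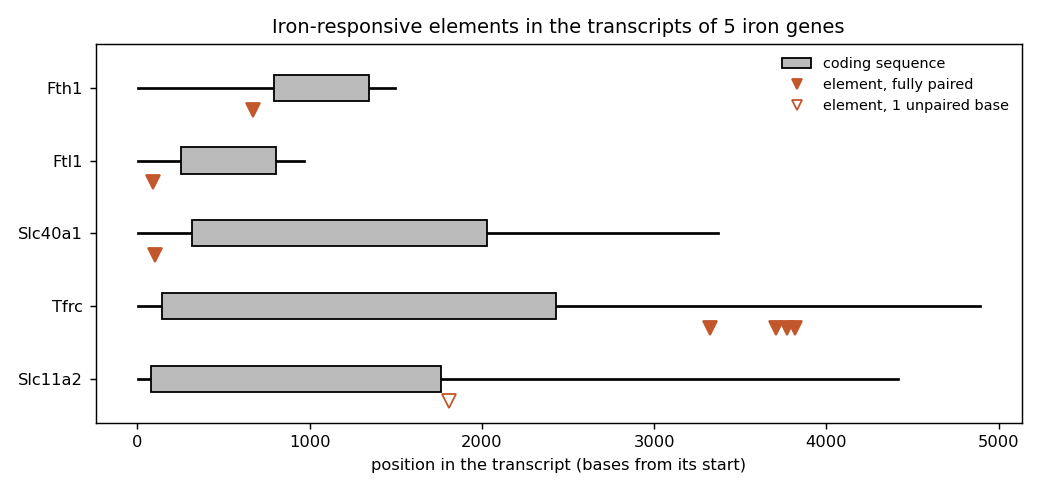
Position of the iron-responsive elements along transcripts of 5 genes, in bases from the transcript start. Slc11a2 is drawn on the 1 coding transcript that holds its element and the other genes on their reference transcripts. The Fth1 reference has a 5′ UTR of 795 bases, so the position of its element depends on that model. The grey box is the coding sequence, the line the whole transcript, filled triangles fully paired elements and the open triangle the Slc11a2 element with 1 unpaired base. The ferritin and Slc40a1 elements lie before the coding sequence, and the 4 Tfrc elements and the Slc11a2 element after it.

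Several facts of the whole series bear on these results. The libraries held 22303270 to 31189363 reads in all listed genes, and the value of 3 reads was between 0.106 and 0.142. Xist had a mean of 286 ± 46.7 in the female group and of 0.323 ± 0.176 in the male group (SD, n = 3). Transcripts of Ddx3y, Uty, Eif2s3y and Kdm5d, all Y-linked, were nevertheless present in every library labelled female, at 51.3% to 91.5% of the male level. That goes against the label, so each direction below is between libraries as labelled. Male replicate 4 stood apart, with a chi-square statistic per gene of 43.6 and 45.4 against the other male libraries, where they gave 5.98 with each other. Of the 12568 genes tested, 69.3% passed an adjusted p of 0.05 and 74.1% had groups that did not overlap, so a call by itself was common.

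Against that background, 7 of the 9 iron genes passed the threshold, 5 higher (34.6% of all genes) and 2 lower (34.6% of all genes) in the libraries labelled female. The groups did not overlap for 8 of the 9. The median log2 fold change was 0.27 for the 9 genes and 0.01 for all genes tested. A call with a log2 fold change of 1 or more in size, which 20.6% of genes reached, was found for 3 of the 9, Tfrc, Slc40a1 and Steap3. All fold changes were taken on log2(value + 1), a scale that makes changes of weakly read genes such as Slc40a1 and Steap3 look smaller than they are.

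**Figure D2:**
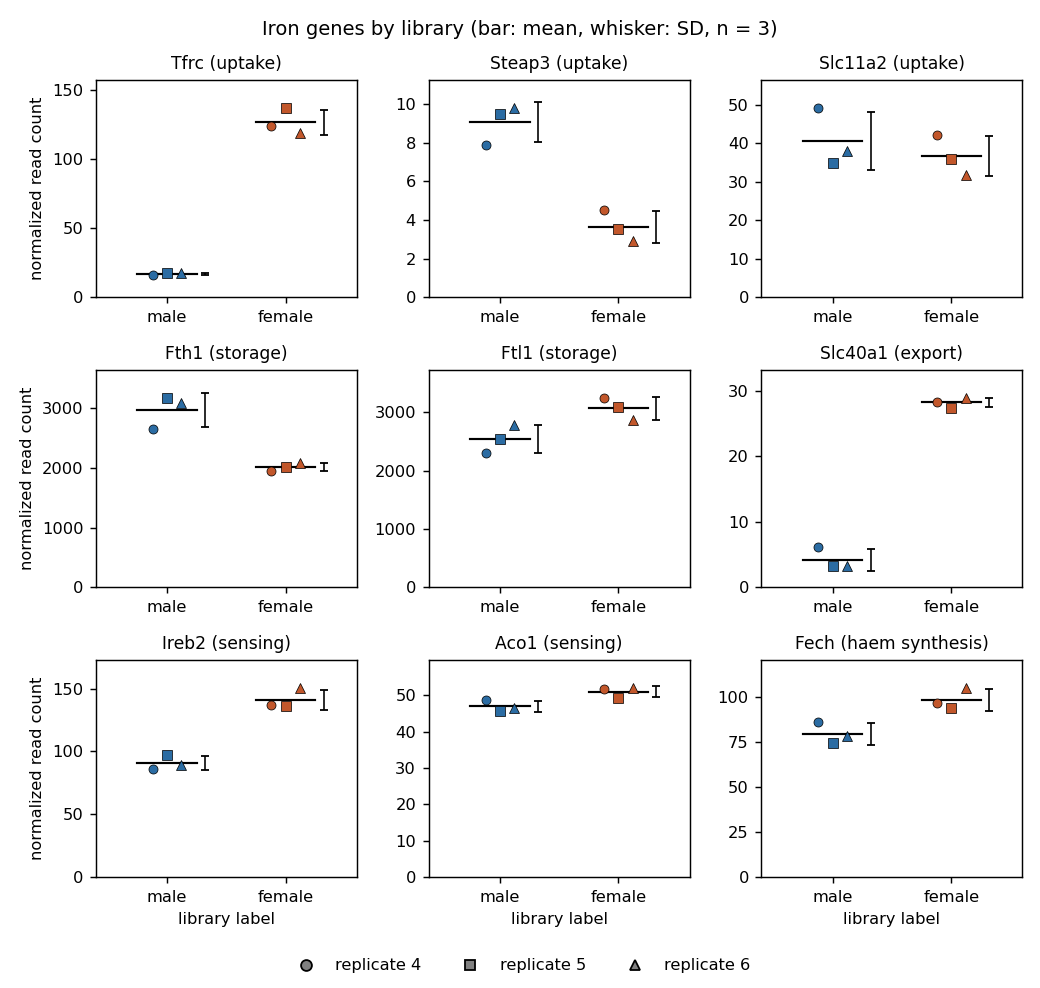
Normalized read count of each of the 9 iron genes in each library, on a linear axis from 0 that differs between panels. Symbols are replicates, the bar is the mean and the whisker the SD of 3 libraries. Tfrc and Slc40a1 are higher, and Steap3 and Fth1 lower, in all 3 libraries labelled female, whereas the Slc11a2 groups overlap.

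Among the uptake genes, Tfrc (chromosome 16 in GRCm38) showed the largest change. Its normalized read counts were 16.2, 17.5 and 17.7 in the libraries labelled male and 124, 137 and 119 in those labelled female. The lowest female value was thus several times the highest male value, and each group was tight. The means were 17.1 ± 0.825 and 127 ± 9.26 (SD, n = 3), and the log2 fold change was 2.81 (adjusted p 4.54e-08 by limma, SE 0.08). This was the 78th largest increase among the 12568 genes tested. Between 390 and 500 reads in a male library and between 2505 and 3098 in a female library supported these values. Across the other fits the log2 fold change stayed between 2.76 and 2.89.

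Because Tfrc changed most, the sequence before its start is shown. It is the window before the more upstream of its 2 RefSeq starts (GRCm38.p6, chr16:32608646-32608905, plus strand, 250 bases before the start and 10 after). Capitals mark ACGTG, a form of the core that hypoxia-inducible factors bind, and GCGTG, the core that the aryl hydrocarbon receptor binds, on either strand. Neither core is particular to these factors.
Tfrc: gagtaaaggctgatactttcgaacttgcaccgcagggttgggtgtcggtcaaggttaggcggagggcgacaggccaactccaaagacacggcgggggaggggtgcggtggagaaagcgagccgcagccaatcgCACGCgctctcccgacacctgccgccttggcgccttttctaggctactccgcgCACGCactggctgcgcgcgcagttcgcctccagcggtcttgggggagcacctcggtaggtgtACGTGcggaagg

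The 300-base windows of 6 of the 9 genes were matched by symbol in the RefSeq table. Of these 6 genes, ACGTG was found for Tfrc, as 1 site that lies where its 2 windows overlap. Over the windows of all genes in the table, 24.8% held ACGTG and 49.7% held GCGTG. The latter was found in both windows of Tfrc, in the window of Ftl1, in 1 of 2 for Fth1 and in 1 of 4 for Steap3, and in none for Aco1 or Ireb2. A match is a description of letters and not of binding.

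Steap3 (chromosome 1), the endosomal reductase best known from red cell precursors, moved the other way. It was read at 7.88, 9.49 and 9.78 in the libraries labelled male and at 4.52, 3.54 and 2.90 in those labelled female. The groups did not overlap, but the gene was weakly read, with 61 to 277 reads per library. The means were 9.05 ± 1.03 and 3.65 ± 0.820 (SD, n = 3), and the log2 fold change was -1.12 (adjusted p 0.000221 by limma, SE 0.15). On the recovered reads edgeR gave -1.31 (adjusted p 0.000300), and over the 16 other fits the adjusted p ran from 1.58e-09 to 0.00176.

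Slc11a2 (chromosome 15), the ferrous iron transporter of the endosome, was read at 49.1, 34.9 and 37.9 in the libraries labelled male and at 42.2, 36.03 and 31.8 in those labelled female. The groups overlapped and male replicate 4 was the highest of the 6. The means were 40.6 ± 7.51 and 36.7 ± 5.25 (SD, n = 3), which gave -0.14 on the log2 scale (95% interval -0.47 to 0.19, limma adjusted p 0.410), and without male replicate 4 it was 0.0026. The interval excludes changes of the size seen for Tfrc in either direction.

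The ferritin chains, which together form the iron storage shell, moved in opposite directions, though the Ftl1 call did not hold in every fit. Fth1 (chromosome 19), the chain with the ferroxidase site, was read at 2641, 3166 and 3079 in the libraries labelled male and at 1939, 2009 and 2083 in those labelled female. All 3 female values lay below the lowest male value. The means were 2962 ± 281 and 2010.5 ± 72.1 (SD, n = 3), which gave -0.56 on the log2 scale (adjusted p 0.000629 by limma, SE 0.09).

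Ftl1 (chromosome 7), the chain that aids core formation, was read at 2302, 2532 and 2782 in the libraries labelled male and at 3241, 3088 and 2861 in those labelled female. The groups were separate, though female replicate 6 lay close to male replicate 6. The means were 2539 ± 239.8 and 3063 ± 191 (SD, n = 3), which gave 0.27 on the log2 scale (adjusted p 0.0296 by limma, SE 0.09). The call was lost without male replicate 5 (adjusted p 0.0655), without female replicate 4 (0.110), without female replicate 5 (0.0948) and under quantile normalization (0.116), and over all 16 other fits the adjusted p ran from 0.0114 to 0.116. In the reference, 90.6% of the 50-base stretches of the Ftl1 transcript also occur in 17 other annotated genes, so its value is uncertain, whereas for Fth1 the share was 4.01%.

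Within a library the ratio of Fth1 to Ftl1 does not depend on the scaling of that library. It was 1.147, 1.25 and 1.11 in the libraries labelled male and 0.598, 0.651 and 0.728 in those labelled female. Fth1 thus gave more reads than Ftl1 in every male library and fewer in every female library. The ratio rests on the Ftl1 value, which is uncertain because most of its sequence is shared with other annotated genes. The log2 ratio differed by -0.83 (exact two-sided permutation test, p 0.1, the smallest that 3 against 3 allows, and 0.15 after adjustment over the 3 ratios tested). Per kilobase of reference transcript, both chains stood far above the other 7 genes in the libraries labelled male. Fth1 was at 1980 ± 188 and Ftl1 at 2620 ± 248 (SD, n = 3), against means of 1.25 to 15.7. The Fth1 reference has a 5′ UTR of 795 bases in 1494, so its value per kilobase depends on that model.

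Slc40a1 (chromosome 1) encodes ferroportin, the only iron exporter known in mammals. It was read at 6.18, 3.20 and 3.28 in the libraries labelled male and at 28.3, 27.4 and 28.9 in those labelled female. The female libraries were nearly alike, and male replicate 4 was the highest of its group. The means were 4.22 ± 1.70 and 28.2 ± 0.740 (SD, n = 3), and the log2 fold change was 2.53 (adjusted p 8.81e-06 by limma, SE 0.20), the 119th largest increase of all genes tested. Reads ran from 84 to 149 per male library and from 608 to 682 per female library. Without male replicate 4 the log2 fold change was 2.78.

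Slc40a1 is abundant in macrophages and hepatocytes of the liver, so the markers of these cells stand beside it. Of 12 macrophage and Kupffer cell markers, 9 were listed, and their summed value ran from 7.34 to 9.57 in the libraries labelled male and from 12.1 to 14.4 in those labelled female. Csf1r and Cd68, the only tested genes of the list, made up most of it. Both were called higher like Slc40a1, as were 34.6% of all genes. Their log2 fold changes were 0.56 (limma adjusted p 0.0101) and 0.48 (limma adjusted p 0.00479). Ptprc, a gene of all white blood cells, was at 0 in every male library and between 0.142 and 0.332 in the female ones. The defining Kupffer cell genes Cd163, Marco, Vsig4, Cd5l, C1qa and C1qb were at or near 0, with no library above 0.0950. Of 10 hepatocyte markers, 7 were listed with sums of 2.41 to 4.12 and 1.95 to 8.05. Apob, the only one that passed the filter, was called higher (limma adjusted p 0.0146) and held most of the female sum. It was at 1.08 ± 0.684 in the male and 5.17 ± 3.18 in the female libraries (SD, n = 3). The Apob groups overlapped, with male replicate 5 at 1.87 and female replicate 6 at 1.66. Alb, below the filter, stood at 0.584 ± 0.0145 in the male and 0.0435 ± 0.0416 in the female libraries (SD, n = 3).

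Other cell markers also differed between the groups. Of 10 endothelial markers, 8 were called lower and 1 higher in the libraries labelled female, beside 34.6% of all genes in each direction. Their sum ran from 2176 to 2271 in the male and from 1158 to 1221 in the female libraries. Pecam1, which encodes CD31, was at 407 ± 16.2 and 73.9 ± 0.540 (SD, n = 3). The sinusoidal sum ran from 490 to 529 and from 7.65 to 9.11 and was mostly Lyve1. Both tested genes of that list, Lyve1 and Stab1, were called lower, with Stab1 at 15.7 ± 2.41 and 1.95 ± 0.306 (SD, n = 3), while Stab2, Clec4g and Fcgr2b, which define sinusoidal endothelium, were near 0 in both groups. Of 8 tested stellate, fibroblast and mural markers, 3 were called higher and 5 lower, beside the same 34.6% of all genes in each direction. The sum of the list ran from 1673 to 2021 and from 2339 to 2800, with Acta2 at 78.6 ± 47.9 and 1694 ± 187 (SD, n = 3). Without male replicate 4 the male mean of Acta2 was 51.1. Without Acta2 the sum of this list ran from 1616 to 1887 in the male and from 826 to 912 in the female libraries, with Pdgfrb at 133 ± 3.76 and 14.3 ± 1.17 and Col1a2 at 937 ± 132 and 335 ± 12.9 (SD, n = 3). Of 4 tested cholangiocyte markers, 1 was called higher and 3 lower, again beside 34.6% of all genes in each direction. The cholangiocyte sums ran from 1637 to 2484 and from 509 to 610. Of 9 erythroid markers 2 were listed, Epor and Alas2, with sums of 7.88 to 12.4 and 0.706 to 1.47, and none of the 7 lymphocyte markers was listed. The part of these shifts in the iron gene values was not tested. In bulk RNA, fewer cells of a type and less RNA per cell cannot be told apart.

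The ratio of Tfrc to Slc40a1, import set against export, was 2.62, 5.48 and 5.38 in the libraries labelled male and 4.38, 4.997 and 4.12 in those labelled female. The female values lay inside the male range. The log2 ratio differed by 0.08 (exact two-sided permutation test, p 1.0, also 1.0 after adjustment), and by -0.27 without male replicate 4. With 3 libraries against 3 this test cannot go below p 0.1, so it could not have called a difference.

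**Figure D3:**
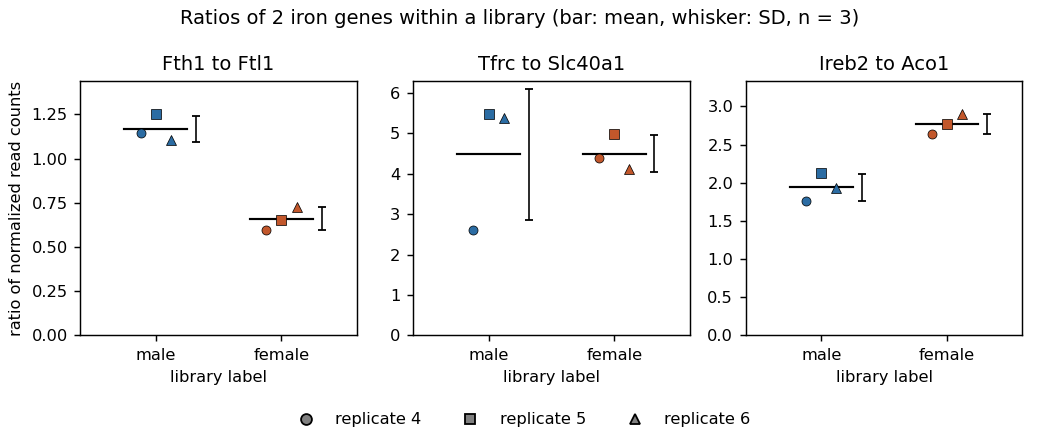
Ratio of the normalized read counts of 2 iron genes within each library, on linear axes from 0. Symbols are replicates, the bar is the mean and the whisker the SD of 3 libraries. Fth1 to Ftl1 is lower and Ireb2 to Aco1 higher in all 3 libraries labelled female, and the groups overlap for Tfrc to Slc40a1, where male replicate 4 is the lowest at 2.62.

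The sensing genes Ireb2 and Aco1 encode iron regulatory proteins 2 and 1. Ireb2 (chromosome 9), whose protein is broken down when iron and oxygen are plentiful, was read at 85.7, 97.1 and 89.4 in the libraries labelled male and at 137, 136 and 151 in those labelled female. All 3 female values were above all 3 male values. The means were 90.7 ± 5.81 and 141 ± 8.15 (SD, n = 3), and the log2 fold change was 0.63 (adjusted p 7.82e-05 by limma, SE 0.07).

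Aco1 (chromosome 4), whose protein is a cytosolic aconitase when it carries an iron-sulphur cluster and an RNA-binding protein when it does not, varied little. It was read at 48.5, 45.6 and 46.4 in the libraries labelled male and at 51.8, 49.2 and 52.0 in those labelled female. The groups did not overlap, but the gap was small. The means were 46.9 ± 1.49 and 51.0 ± 1.54 (SD, n = 3), which gave 0.12 on the log2 scale (95% interval -0.03 to 0.26, limma adjusted p 0.127). It was called higher without male replicate 4 (0.14, adjusted p 0.0440) and under quantile normalization (0.17, adjusted p 0.0338), and the adjusted p ran from 0.0338 to 0.286 over all 16 other fits.

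The ratio of Ireb2 to Aco1 was 1.77, 2.13 and 1.93 in the libraries labelled male and 2.64, 2.77 and 2.90 in those labelled female. The groups did not overlap. The log2 ratio differed by 0.52 (exact two-sided permutation test, p 0.1, and 0.15 after adjustment over the 3 ratios).

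Fech encodes ferrochelatase, the mitochondrial enzyme that inserts iron into protoporphyrin to make haem. It was read at 86.0, 74.2 and 78.1 in the libraries labelled male and at 96.3, 93.5 and 105 in those labelled female. The groups did not overlap. The means were 79.4 ± 6.02 and 98.2 ± 5.90 (SD, n = 3), which gave 0.30 on the log2 scale (adjusted p 0.00709 by limma, SE 0.08).

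**Figure D4:**
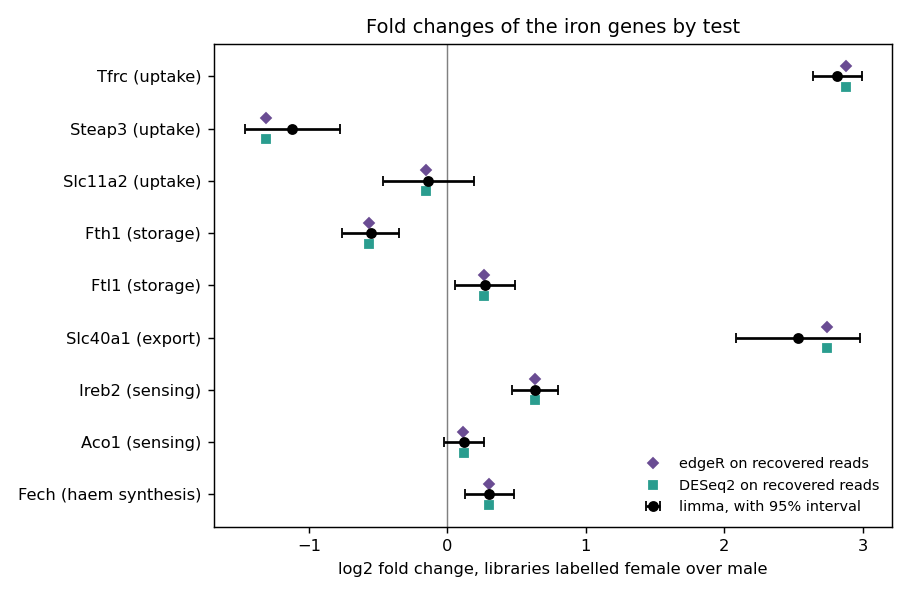
Log2 fold change of the 9 iron genes, libraries labelled female over male. Black points and bars are limma estimates on log2(value + 1) with 95% intervals, and diamonds and squares are edgeR and DESeq2 on recovered reads. The intervals of Slc11a2 and Aco1 include 0, and those of Tfrc (2.64 to 2.99) and Slc40a1 (2.08 to 2.98) lie farthest from it.

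In the authors' deposited table, 2 of the 9 genes had a false discovery rate under 0.05, against 25.8% of all genes there. The authors' deposited table gives Tfrc a fold change of 7.40 with a rate of 9.64e-08 and Slc40a1 one of 6.68 with a rate of 0.00102. The authors' deposited table gives Fth1 a rate of 0.111 and Steap3 one of 0.101, and the rates of the other 5 genes there lie between 0.294 and 0.806.

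Other genes of iron handling, listed by role, came to 81, of which 67 were in the table and 64 were tested. Of these, 21 were called higher and 26 lower, 73.4% in all, near the 69.3% of all genes, with a median log2 fold change of -0.08. The genes Tf, Tfr2, Scara5, Tmprss6, Ftmt, Hephl1, Hamp, Hamp2, Hjv, Erfe, Skp1, Flvcr1, Flvcr2 and Fdx2 were not analysed here, and Cybrd1, Cd163 and Alas2 were below the filter.

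Of 10 tested genes of uptake and reduction, 1 was called higher and 6 lower, 70.0% in all against 69.3% of all genes, with a median of -0.57. Lcn2, a secreted carrier of iron-binding siderophores, was at 1768 ± 333 and 309 ± 37.5 (SD, n = 3), and the log2 fold change was -2.50. Hfe, a partner of transferrin receptors, and the metalloreductase Steap4 had log2 fold changes of -2.04 and -2.31. Steap2, another metalloreductase, was higher (0.76). Slc39a14, which imports iron not bound to transferrin, had a log2 fold change of -0.31 (limma adjusted p 0.0232). That call was lost without male replicate 5 (0.0732), male replicate 6 (0.0823), female replicate 4 (0.0654) or female replicate 6 (0.0872) and under quantile normalization (0.0568), and the adjusted p ran from 0.000935 to 0.0872 over the 16 other fits.

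All 3 tested genes of storage and ferritin turnover were called lower, as were 34.6% of all genes, and a list of 3 is too short to read against that share. Ncoa4, the receptor that carries ferritin to the lysosome for iron release, was read at 1470, 1300 and 1371 in the libraries labelled male and at 294, 329 and 360.4 in those labelled female. Its female level was far below the male one in every library, with a log2 fold change of -2.07 (adjusted p 3.15e-07 by limma, SE 0.09). The iron chaperones that load ferritin were lower too, Pcbp1 by -0.63 and Pcbp2 by -0.25 (limma adjusted p 0.0194). The Pcbp2 call was lost without female replicate 4 (0.0815) or female replicate 5 (0.0614) and under quantile normalization (0.0571), and the adjusted p ran from 0.00954 to 0.0815 over the 16 other fits.

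Of 5 tested genes of export and the hepcidin axis, 1 was called higher and 3 lower, where 34.6% of all genes were called in each direction. The copper oxidases that prepare exported iron for transferrin were lower while Slc40a1 was higher. Cp, ceruloplasmin, was at 930 ± 78.2 and 88.8 ± 20.1 (SD, n = 3), and the log2 fold change was -3.39 (adjusted p 3.86e-07 by limma, SE 0.15), and Heph, hephaestin, had one of -1.48. Bmp6 and Bmp2 are the endothelial signals that induce hepcidin in hepatocytes. Bmp6 was read at 2.61, 2.75 and 1.87 in the libraries labelled male and at 16.6, 15.7 and 17.4 in those labelled female, a log2 fold change of 2.37, and Bmp2 went the other way (-1.18).

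Of 4 tested genes of iron sensing, 1 was called higher and 3 lower, beside the same 34.6% of all genes in each direction. Fbxl5, the subunit of the ligase that degrades iron regulatory protein 2, was at 108 ± 8.79 and 84.6 ± 2.37 (SD, n = 3), and the log2 fold change was -0.34 (limma adjusted p 0.00300), and its ligase partner Cul1 was higher (0.43). The oxygen-regulated factors Hif1a and Epas1 had log2 fold changes of -2.18 and -2.02.

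Of 7 tested genes of haem synthesis besides Fech, 2 were called higher and 3 lower, 71.4% in all and near the 69.3% of all genes. Alas1, the first and rate-limiting enzyme outside red cell precursors, was higher at 64.0 ± 3.01 against 35.4 ± 1.75 (SD, n = 3), and the log2 fold change was 0.84, as was Alad (0.41). Ppox was lower (-0.74), as was Urod (-0.26, limma adjusted p 0.0483). Urod was called in only 1 of the 6 fits that each left out a library, that without male replicate 4, and its adjusted p ran from 0.00665 to 0.158 over the 16 other fits.

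Of 8 tested genes of haem transport and breakdown, 6 were called higher and 1 lower, with a median of 0.37. Together 87.5% were called, against 69.3% of all genes and 34.6% in either single direction. Blvrb, a biliverdin reductase, rose from 26.2 ± 3.89 to 63.1 ± 3.36 (SD, n = 3), and the log2 fold change was 1.24. The haem-binding protein Pgrmc1 (0.52) and the endosomal haem transporter Slc48a1 (0.40) were also higher, and Hmox2, a constitutive haem oxygenase, was lower (-0.42). Hmox1, the inducible haem oxygenase that frees iron from haem, was abundant in both groups, at 1669 ± 60.2 and 1945 ± 118 (SD, n = 3), and its log2 fold change was 0.22 (limma adjusted p 0.0273). The Hmox1 call was lost without male replicate 5 (0.0894), female replicate 4 (0.110) or female replicate 5 (0.0741), and the adjusted p ran from 0.00537 to 0.110 over the 16 other fits.

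**Figure D5:**
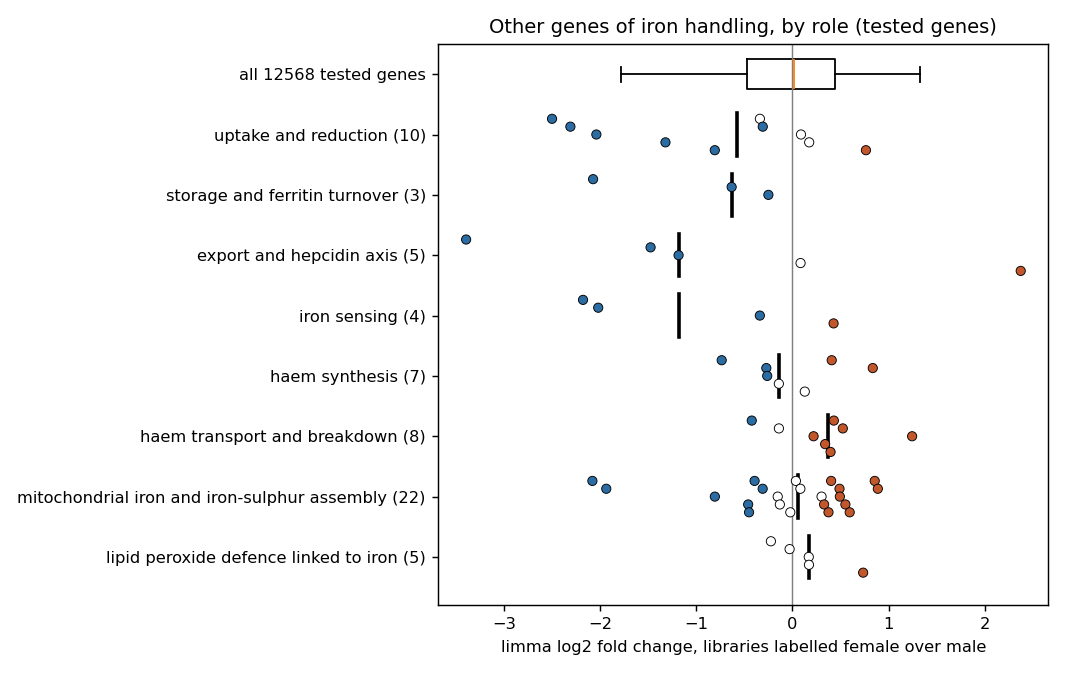
Limma log2 fold change, libraries labelled female over male, of the tested iron genes outside the 9, 1 point per gene by role. Orange points were called higher, blue points lower and white points not called, the black bar is the median of a role, and the box at the top shows the quartiles of all 12568 tested genes with whiskers at percentiles 5 and 95. Cp at -3.39 and Bmp6 at 2.37 are the extremes.

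The genes outside these lists whose profile over the 6 libraries was nearest to that of Tfrc were 5830416P10Rik, Ablim3 and Gata4. Their Euclidean distances to Tfrc were 0.149, 0.207 and 0.214 on the centred log2(value + 1) scale. Nearest to Slc40a1 were Trim16, Mex3b and Prss23, at distances of 0.234, 0.255 and 0.256. Pearson's r was between 0.9969 and 0.9991 for each of these pairs, and since 2 groups of 3 libraries set most of each profile, these values describe likeness only.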

How the data were processed

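Poly(A) RNA libraries (Kapa HyperPrep) came from Trizol and column extracts, per the labels' protocols. The submitters' processing notes name Bowtie2, RSEM, edgeR and the build mm39, with no order or version; the annotation and the rule for a detectable gene are not given in the sources used here. The deposited values are a signal, reads normalized by the authors: in every column 100% of values were whole multiples (within 0.01) of the smallest value above 0, and division by it gave whole numbers taken as reads. RSEM estimates need not be whole, so how these reads were counted, and how reads shared between genes were assigned, is uncertain. The deposited fold change is a signed linear score, and a p-value and a false discovery rate were also deposited, per the file headers. Of the per-sample columns, 0 lacked a sample.

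Limma 3.58.1 in R 4.3.3 (eBayes with trend) was fitted to log2(value + 1) over the 12568 genes that reached a value of 1 in 3 or more libraries. Benjamini-Hochberg adjustment ran over all of these genes, with a threshold of 0.05. Ratios were tested exactly with scipy 1.17.1. Alternatives were RLE factors, quantile normalization, other filters and pseudocounts, the replicate block, edgeR 4.0.16, DESeq2 1.42.0 and voom on recovered reads, a fold threshold, and each library left out. Scripts were tested on simulated data. The 9 genes and all lists were chosen with earlier results of these data known. In each role, up to 3 called genes in each direction with the largest fold change and a mean of at least 5 were named, plus 8 genes named whatever their values. Some genes this rule would name are not reported here. GENCODE M21 and RefSeq sequences are of GRCm38, not the authors' mm39, and were matched by symbol. Replicate numbers did not pair the libraries (correlations of deviations -0.09, -0.03 and -0.17).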

Additional observations from a re-analysis of the deposited data

How the results depend on the processing

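Over 10 alternatives with all 6 libraries, 83 of 90 values of the 9 iron genes kept direction and call. Ftl1 was not called under quantile normalization (0.22) or with the replicate block (0.27, adjusted p 0.0743), and Aco1 was called under quantile normalization (0.17). Requiring a log2 fold change of 1 or more in size by its construction ended the calls of Fth1 (-0.56), Ftl1 (0.27), Ireb2 (0.63) and Fech (0.30), leaving 2 of the 9 higher and 1 lower, 2 other iron genes higher and 12 lower, and 2589 genes in all. The block changed no other call among the 9 genes, and among the other named genes it ended those of Urod (adjusted p 0.0770) and Hmox1 (0.0636); with it 8314 genes were called. With each library left out, 49 of 54 values kept direction and call. Ftl1 then ran from 0.21 to 0.34, Aco1 from 0.10 to 0.14 and Slc11a2 from -0.24 to 0.0026, positive only without male replicate 4. The log2 difference in the ratio of Tfrc to Slc40a1 ran from -0.27 to 0.26 and was below 0 without male replicate 4 (-0.27) and without female replicate 5 (-0.0018). The causes were not tested. Of the other named iron genes, 304 of 330 values with all libraries and 181 of 198 with one left out kept direction and call, and none reversed. Steap3 and Slc40a1 rest on 61 to 277 and 84 to 682 reads per library, and the part of counting error in their spread was not tested.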

Other observations

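Of 22 tested genes of mitochondrial iron import and iron-sulphur cluster assembly, 9 were called higher and 7 lower in the female group, 72.7% in all and near the 69.3% of all genes, with a median log2 fold change of 0.06. The largest decreases were of Fdx1, Isca1 and Hscb. Fdx1, a mitochondrial ferredoxin, was at 45.3 ± 3.49 and 10.01 ± 1.62 (SD, n = 3), for a log2 fold change of -2.08. Isca1, an assembly factor, was at 229 ± 10.6 and 59.2 ± 2.70 (SD, n = 3), for one of -1.94. The co-chaperone Hscb had one of -0.81. Among the genes called higher was Cisd1, an outer membrane cluster protein (0.86).

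Of 5 tested genes linked to iron-driven lipid oxidation or to the defence against it, 1 was called, where 69.3% of all genes were. Slc7a11, the cystine importer, was higher, at 508 ± 28.1 against 307 ± 43.8 (SD, n = 3), and its log2 fold change was 0.74 (limma adjusted p 0.000326). Gpx4, the peroxidase that reduces lipid peroxides, was at 293 ± 25.2 and 329 ± 6.87 (SD, n = 3) and was not called (limma adjusted p 0.0638).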
